A study of Mus musculus with 18 samples.

Results

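The genes described here carry ions, phosphate and water along the nephron. They were taken by symbol from the array annotation, as the sodium, bicarbonate, sulfate, phosphate, urate and cation-chloride carriers of the Slc4, Slc8, Slc9, Slc12, Slc13, Slc17, Slc20, Slc26 and Slc34 families, the subunits of the epithelial sodium channel (Scnn1), the inward rectifier potassium channels (Kcnj), the aquaporins (Aqp), the chloride channels (Clcn), the catalytic and beta subunits of the sodium pump (Atp1a and Atp1b) and the subunits of the proton pump (Atp6v). Of 46643 probes in the table that holds the B6 and NZW mice, 220 belonged to 126 such symbols. The table that holds the BALB/C, DBA1 and 129/svj mice has its own row numbers and no symbols, and 102 of its 46147 rows could be named, through the search key shared with a probe of the other table, for 72 of these symbols. The remaining 54 symbols were therefore read in B6 and NZW only.

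The RNA came from the kidney cortex of 15 mice at 2 months of age, 3 mice each of the strains B6, BALB/C, DBA1, 129/svj and NZW, and it was hybridised to Illumina mouse BeadChips. Every mouse had been challenged with anti-GBM antibody, which binds the glomerular basement membrane and starts a nephritis. The labels call B6 and BALB/C resistant and DBA1, 129/svj and NZW sensitive. No unchallenged mice were analysed here, so differences that the strains carried before the challenge and differences in their response cannot be told apart.

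The proximal tubule reclaims most of the filtered sodium, bicarbonate, phosphate and water, and it handles sulfate, oxalate, urate and dicarboxylates through exchangers on its luminal and basolateral faces. The thick ascending limb takes up sodium, potassium and chloride together without water, and the distal convoluted tubule takes up sodium with chloride. In the collecting duct the principal cells absorb sodium and water under the control of aldosterone and vasopressin, whereas the intercalated cells secrete acid or base with the proton pump and anion exchangers. The sodium pump on the basolateral face drives the uptake of sodium in these steps.

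Levels are given as normalized log2 signal, on which a difference of 1 is a doubling, and only values of the same probe within the same table were compared. A probe was called detected in a mouse at a detection p of 0.05 or less, tested if detected in at least 3 mice, and called different at an adjusted p below 0.05 in limma's moderated test over all tested probes of its table. In B6 and NZW, 112 of the 220 member probes were tested, covering 79 genes, and 90 were detected in no mouse. In BALB/C, DBA1 and 129/svj, 45 of the 102 rows were tested, covering 39 genes, and 53 were detected in no mouse. Slc9a3, the luminal sodium-proton exchanger, and Kcnj10, a basolateral potassium channel of the distal convoluted tubule, had no tested probe in B6 and NZW. Array medians of the deposited signal lay between 81.1 and 89.8 for B6 and NZW and between 118 and 152 for the other strains, and 30.5% to 36.4% of its probes were detected. Over all probes, mice of a strain correlated at 0.9595 to 0.9929, and the lowest values belonged to DBA1 mouse 3 and 129/svj mouse 3, so results in which these mice stand apart are also given without them. The cortex carried its defining transcripts in every mouse, among them Slc34a1 and Umod in B6 and NZW.

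Carriers of the proximal tubule differed between the kidneys of B6 and NZW mice, whereas those of the thick ascending limb and the sodium pump did not pass the test. Over all members, 21 of 112 probes were called, 6 higher and 15 lower in B6, against 18.9% of all 16756 tested probes, of which 9.25% were higher and 9.61% lower. The share of members called, 18.8%, was thus that of the array as a whole. In the proximal tubule 9 of 25 probes, from 8 genes, were lower in B6 and 1 was higher. The median log2 difference over these 25 probes was -0.345, beside -0.0422 over all tested probes, and 24 of the 25 had a negative sign. With the arrays scaled on their 75th percentile instead of by quantiles, the members split into 6 higher and 27 lower and 37.3% of all called probes were higher in B6 in place of 49%. These are bulk samples, in which fewer cells of a type and less RNA per cell cannot be told apart.

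**Figure D1:**
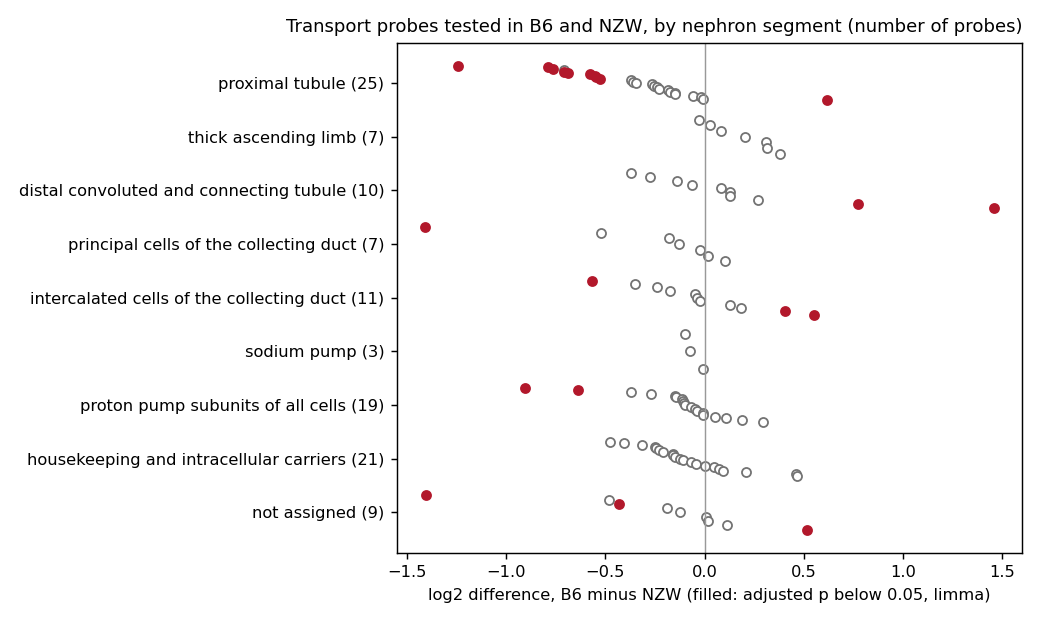
Log2 difference between B6 and NZW (horizontal axis) of the 112 tested transport probes, grouped by nephron segment or function (vertical axis, number of probes in brackets). Filled points passed an adjusted p of 0.05, and 9 of the 10 filled points of the proximal tubule lie left of 0.

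The largest difference among the proximal carriers was that of Slc26a1, the basolateral exchanger that moves sulfate and oxalate against bicarbonate. The 3 B6 mice read 9.91, 9.90 and 10.01 and the 3 NZW mice 11.32, 11.25 and 10.97. All B6 values lay below all NZW values, nearly a whole unit apart. The difference was -1.24 ± 0.123 (SE), a 2.36-fold lower signal in B6 (adjusted p = 0.00018), and it passed in every alternative and with any mouse left out. Slc26a6, the luminal exchanger of oxalate for chloride, ran the same way. It read 8.40, 8.35 and 8.15 in B6 against 8.81, 8.97 and 9.19 in NZW, again without overlap. Its difference was -0.69 ± 0.132 (adjusted p = 0.0074).

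Proximal genes that moved together invite a look at their start sites. HNF1 factors are known activators of proximal tubule genes, and their palindromic site repeats the unit GTTAAT. In the 250 bases before each annotated start (RefSeq, GRCm38.p6), this unit was found on either strand in 6.43% of 32851 windows of the mouse genome. It was found in 0 of 11 windows of the 8 proximal genes that were lower in B6, all of which matched the RefSeq table. Among the 17 tested proximal genes, of which 16 matched, it was found in that of Slc34a1 only. Slc26a1 has 2 annotated starts, and the window shown is that of the upstream one, since the other window lies downstream of this start. This window, of the carrier with the largest difference, and that of Slc34a1, shown as the window with the unit in capitals, are these.
Slc26a1, chr5:108675366-108675615, minus strand: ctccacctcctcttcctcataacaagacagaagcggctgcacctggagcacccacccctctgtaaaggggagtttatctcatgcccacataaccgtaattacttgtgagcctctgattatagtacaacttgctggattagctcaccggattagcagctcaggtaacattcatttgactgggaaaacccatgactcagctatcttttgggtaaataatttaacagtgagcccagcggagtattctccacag
Slc34a1, chr13:55399398-55399647, plus strand: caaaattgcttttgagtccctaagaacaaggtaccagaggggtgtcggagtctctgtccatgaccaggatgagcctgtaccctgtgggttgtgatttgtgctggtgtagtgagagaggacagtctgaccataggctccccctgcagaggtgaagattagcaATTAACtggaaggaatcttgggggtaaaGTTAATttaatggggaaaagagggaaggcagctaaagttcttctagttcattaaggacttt
A match is a run of letters and not a site of binding.

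Slc4a4, Slc9a8 and Kcnj15 each had 1 probe that was lower in B6. Slc4a4 is the sodium bicarbonate cotransporter through which bicarbonate leaves the cell, and its called probe read 9.22, 9.15 and 9.46 in B6 against 10.13, 10.12 and 9.88 in NZW. The groups did not overlap, and the difference was -0.76 ± 0.127 (adjusted p = 0.0036). The other Slc4a4 probe differed by -0.34 (adjusted p = 0.072), which did not pass. Slc9a8, a sodium-proton exchanger of the brush border, has 3 tested probes, which differed by -0.79 (adjusted p = 0.017), -0.71 (adjusted p = 0.079) and -0.25 (adjusted p = 0.22). The called one read 6.93, 6.93 and 7.58 in B6 and 7.89, 7.87 and 8.05 in NZW, so B6 mouse 3 came closest to NZW. Kcnj15, a basolateral potassium channel, read 9.13, 9.10 and 9.28 in B6 and 10.03, 9.55 and 10.06 in NZW at its called probe, a difference of -0.71 ± 0.153 (adjusted p = 0.013). Its other probe differed by -0.37 (adjusted p = 0.096), so for all these genes the further probes had the sign of the called one without passing.

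The water channels of the proximal tubule were lower in B6 as well. Aqp11 and Aqp7 here, and Slc13a3 and Slc13a2 further on, lie outside the rule for named genes and were chosen after their values were seen. Aqp11, which resides in the endoplasmic reticulum, read 10.04, 9.98 and 10.18 in B6 and 10.45, 10.89 and 10.59 in NZW (difference -0.58 ± 0.137, adjusted p = 0.02). Aqp7, a glycerol and water channel of the straight segment, has 2 tested probes, which agreed in size at -0.55 and -0.55 (adjusted p = 0.022 for each). Each Aqp7 call was kept in 1 of 6 fits with a mouse left out, that without NZW mouse 3. Aqp1, the main water channel of this segment, differed by -0.53 ± 0.151 at one probe (adjusted p = 0.043) and by -0.26 at the other (adjusted p = 0.15). The called Aqp1 probe read 10.50, 10.41 and 10.63 in B6 and 11.30, 10.75 and 11.07 in NZW, so the groups came close without overlap. This call fell short when any mouse other than NZW mouse 2 was left out, with adjusted p of 0.073 to 0.15.

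The carriers best known for phosphate and sulfate did not pass. Slc34a1, which takes up most of the filtered phosphate, read 14.38, 14.26 and 14.56 in B6 and 14.51, 14.63 and 14.74 in NZW (difference -0.23 ± 0.121, adjusted p = 0.24). The groups overlapped at this probe. Slc34a3, the second phosphate carrier of the brush border, differed by -0.24 (adjusted p = 0.34), and Slc13a1, which takes up sulfate, by -0.18 (adjusted p = 0.71). The anion and urate carriers Slc17a1 and Slc17a3 differed by -0.02 and -0.15 (adjusted p = 0.93 and 0.58). Slc13a2, the luminal carrier of citrate, lay just outside the threshold at -0.36 (adjusted p = 0.053).

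Only Slc13a3 among the called proximal genes was higher in B6. It encodes the basolateral dicarboxylate carrier, and 1 probe read 7.93, 8.10 and 7.95 in B6 against 7.19, 7.48 and 7.44 in NZW (difference 0.62 ± 0.12, adjusted p = 0.0079). The other Slc13a3 probe read 10.09, 10.20 and 10.18 in B6 and 10.13, 10.36 and 10.02 in NZW, a difference of -0.01 (adjusted p = 0.97). The 2 probes of this gene thus gave different answers.

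**Figure D2:**
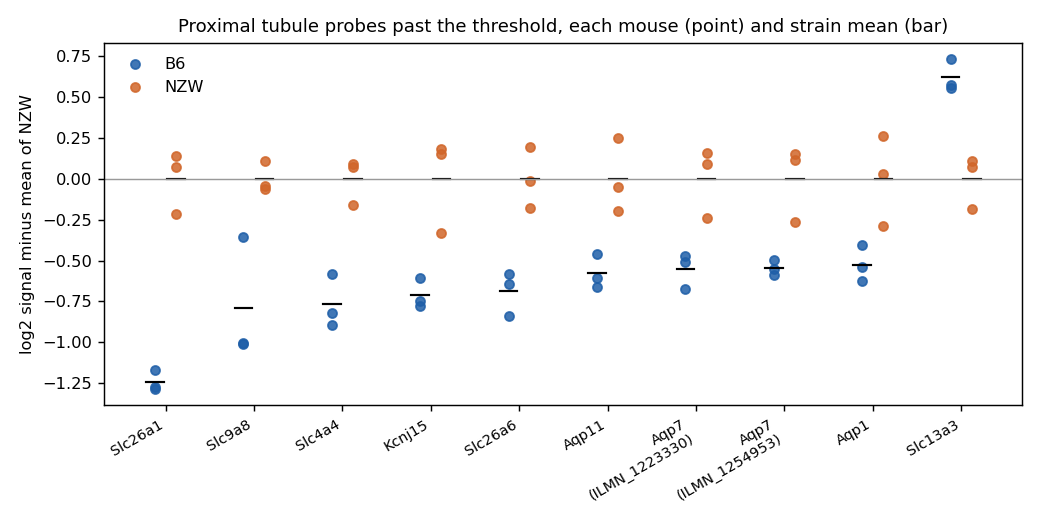
Log2 signal of each mouse minus the mean of NZW (vertical axis) for the 10 proximal tubule probes that passed, with B6 mice in blue, NZW mice in orange and bars for the strain means. The B6 means run from -1.24 for Slc26a1 to -0.53 for Aqp1, and that of Slc13a3 lies at 0.62.

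Of 8 tested probes for other marker genes of the proximal tubule (Lrp2, Cubn, Slc5a2, Slc22a6 and Ggt1), 2 were lower in B6 and none higher, beside 18.9% called over all probes. They were Cubn by -0.60 (adjusted p = 0.007) and the dimmer of 2 Lrp2 probes by -1.16 (adjusted p = 0.00043). The brighter Lrp2 probe differed by -0.16 (adjusted p = 0.43). The summed signal of these 8 probes ran from 32740 to 36910 in B6 and from 37930 to 42150 in NZW, and that of the 25 proximal carrier probes from 64310 to 70650 and from 77600 to 82610. Of 5 tested probes for genes of injured tubules, Havcr1 was lower in B6 by -2.77 (adjusted p = 0.013), while Lcn2 and Spp1 were higher by 1.80 and 0.69 (adjusted p = 0.028 and 0.034). B6 mouse 3 had the lowest Havcr1 of all mice, 5.40, and also the lowest Lcn2 of its strain, 10.55. Of 6 tested leukocyte probes limma called 0, with 1 past an unadjusted p of 0.05, as in the methods' t-test. Their summed signal ran from 1567 to 3683 in B6 and from 1164 to 1800 in NZW. The part of these in the differences of the carriers was not tested.

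Counts in this comparison depended on the mice. Without B6 mouse 1 or mouse 2 the number of proximal probes lower in B6 fell from 9 to 3, and the methods' t-test after Benjamini-Hochberg adjustment called 2.

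Partners of the carriers were read as a list of regulators, scaffolds and carbonic anhydrases, in which 39 probes of 27 genes were tested, 5 lower and 1 higher in B6, with a median difference of -0.0466. Pdzk1, the scaffold that holds Slc34a1 and Slc26a6 at the brush border, was lower in B6 at both of its probes, by -0.64 ± 0.112 (adjusted p = 0.0048) and -0.44 ± 0.0964 (adjusted p = 0.014). The brighter Pdzk1 probe read 14.12, 14.05 and 14.13 in B6 and 14.57, 14.53 and 14.53 in NZW, so the strains were cleanly apart. Of the remaining calls, chosen after their values were seen, Car14 and Car2, which hydrate carbon dioxide for bicarbonate transport, were lower by -0.50 and -0.47 (adjusted p = 0.025 for each). Fxyd2, the gamma subunit of the sodium pump, was higher at 1 of 3 probes, by 0.43 (adjusted p = 0.028), and differed by -0.11 and -0.11 at the others.

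The thick ascending limb and the sodium pump had 0 of 7 and 0 of 3 probes called by limma between B6 and NZW, and also 0 at an unadjusted p of 0.05 by limma or the methods' t-test. The summed signal of the 7 probes was 36580 to 39220 in B6 and 28760 to 34430 in NZW. Of 4 marker probes of the segment 1 was called, that of the prostaglandin receptor Ptger3, higher in B6 by 2.03 (adjusted p = 0.00017), and their summed signal was 20120 to 21300 in B6 and 18110 to 20540 in NZW. Slc12a1, the sodium-potassium-chloride cotransporter, differed by 0.38 (adjusted p = 0.23), 0.31 (adjusted p = 0.32) and -0.03 (adjusted p = 0.91) at its 3 probes. Kcnj1, the potassium channel that recycles potassium for it, differed by 0.08 (adjusted p = 0.68). Atp1b1, the main beta subunit of the sodium pump in the kidney, differed by -0.07 (adjusted p = 0.71).

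In the distal convoluted tubule the thiazide-sensitive sodium chloride cotransporter Slc12a3 was higher in B6 at 2 of its 4 probes and not at the other 2. The brightest probe, ILMN_1214122, read 13.27, 13.49 and 13.53 in B6 and 12.03, 12.13 and 11.75 in NZW. The strains were more than a unit apart, and the difference was 1.46 ± 0.134, a 2.75-fold higher signal in B6 (adjusted p = 0.00012). ILMN_1225762 differed by 0.77 ± 0.105 (adjusted p = 0.0012). ILMN_2756550, almost as bright as the first, read 12.28, 12.66 and 12.70 in B6 and 12.38, 12.47 and 12.39 in NZW, so the groups overlapped, and it differed by 0.13 ± 0.133 (adjusted p = 0.55). ILMN_1229114 differed by -0.14 (adjusted p = 0.52). The probes of this gene disagree, and a change of the gene as a whole was not shown. Kcnj16, a potassium channel of the same cells, differed by 0.13 (adjusted p = 0.44).

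The 2 markers of this segment differed from each other. Pvalb, a calcium-binding protein of the early distal convoluted tubule, read 10.39, 10.31 and 11.24 in B6 and 12.94 to 13.13 over the NZW mice, a difference of -2.38 (adjusted p = 0.00015). Calb1, the calbindin of the late distal convoluted and connecting tubule, differed by 0.28 (adjusted p = 0.46). The summed signal of both markers was 2275 to 3909 in B6 and 9076 to 9693 in NZW.

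In the principal cells 1 of 7 probes was called. Aqp4, a water channel of the basolateral face, read 9.08, 9.18 and 9.31 in B6 and 11.32, 9.56 and 10.92 in NZW at its brighter probe. All NZW mice were higher, but mouse 2 only just. The difference was -1.41 ± 0.381 (adjusted p = 0.035), and it was lost when any mouse other than NZW mouse 2 was left out, with adjusted p of 0.077 to 0.11. The other tested Aqp4 probe differed by -0.18 (adjusted p = 0.5), so the probes of this gene disagree in size. Aqp2, the water channel that vasopressin sends to the luminal face, read 10.60, 10.52 and 10.33 in B6 and 11.61, 10.44 and 10.97 in NZW (difference -0.52, adjusted p = 0.2), so that NZW mouse 2 again lay with B6. The sodium channel subunits Scnn1a, Scnn1b and Scnn1g differed by 0.10, 0.02 and -0.02 (adjusted p = 0.65, 0.94 and 0.91), and Aqp3 by -0.13 (adjusted p = 0.48).

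Transcripts known to respond to tonicity and aldosterone varied over the same NZW mice. Akr1b3, the aldose reductase that makes sorbitol in the medulla, read 7.43, 7.99 and 7.32 in B6 and 9.33 and 7.56 in NZW mice 1 and 2, with mouse 3 above both (difference -1.39, adjusted p = 0.11). Sgk, the aldosterone-induced kinase that raises sodium channel activity, read 13.09, 12.53 and 13.18 in NZW and 12.18, 12.28 and 12.12 in B6, a difference of -0.74 ± 0.173 (adjusted p = 0.019), which was kept in 2 of 6 fits with a mouse left out. Its other probe differed by -0.89 (adjusted p = 0.13). In both genes NZW mouse 2 had the lowest value of its strain. Of 5 tested probes of the inner medulla list 1 was called, a dim probe of Slc6a6 by -1.29 (adjusted p = 0.0024), and the summed signal was 13200 to 13750 in B6 and 13990 to 14700 in NZW. Its part in the Aqp4 difference was not tested.

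**Figure D3:**
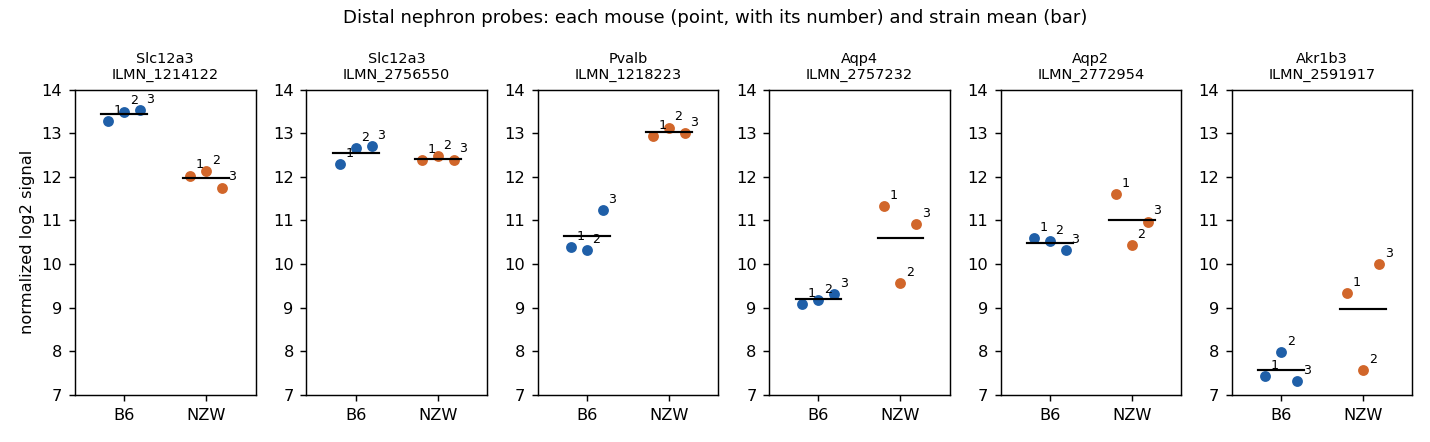
Normalized log2 signal (vertical axis) of each B6 and NZW mouse, numbered, with bars for strain means, at 2 probes of Slc12a3 and at probes of Pvalb, Aqp4, Aqp2 and Akr1b3. The first Slc12a3 probe separates the strains by 1.46 and the second by 0.13, and NZW mouse 2 lies lowest of its strain for Aqp4, Aqp2 and Akr1b3.

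Intercalated cells had 3 called probes of 11, in opposite directions. Slc4a9, an anion exchanger of the base-secreting cells chosen after its value was seen, read 9.12, 9.26 and 9.35 in B6 and 8.67, 8.53 and 8.88 in NZW (difference 0.55 ± 0.125, adjusted p = 0.017). Slc4a8, a sodium-dependent chloride bicarbonate exchanger, was higher in B6 at a dim probe by 0.41 (adjusted p = 0.037) and differed by 0.13 (adjusted p = 0.46) at the other, and the call was lost when any mouse was left out. Aqp6, a vesicular channel of the acid-secreting cells, was lower at 1 probe by -0.57 (adjusted p = 0.012) and differed by -0.05 at the other. The carriers that define these cells did not pass. Slc4a1, the basolateral anion exchanger of acid-secreting cells, differed by -0.35 (adjusted p = 0.12), Slc26a4, the luminal exchanger of base-secreting cells, by -0.24 (adjusted p = 0.26), and the proton pump subunits Atp6v1b1 and Atp6v0a4 by 0.19 and -0.04 (adjusted p = 0.37 and 0.86).

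Among the proton pump subunits shared by all cells, 2 of 19 probes were called and both belong to Atp6v0e2, which encodes a small membrane subunit. One read 9.34, 9.27 and 9.37 in B6 and 9.84, 10.05 and 10.01 in NZW (difference -0.64 ± 0.107, adjusted p = 0.0037). The other differed by -0.90 ± 0.207 (adjusted p = 0.017), so the probes agreed in direction. The remaining 17 probes of this list did not pass. Of the housekeeping carriers, limma called 0 of 21 probes, with 5 past an unadjusted p of 0.05, and the methods' t-test called 2 after adjustment. Their median difference was -0.1244.

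Outside these lists 3 members were called. Aqp8, a water and ammonia channel, read 5.39, 5.23 and 5.01 in B6 and 6.75, 6.43 and 6.67 in NZW, and it was detected in 1 of 3 B6 mice and in every NZW mouse. The difference was -1.40 ± 0.138 (adjusted p = 0.00018), and it passed in every alternative and with any mouse left out. Atp1b2, a beta subunit of the sodium pump best known in brain, was lower in B6 by -0.43 (adjusted p = 0.03), and Atp6v1g2, a stalk subunit of the proton pump, was higher by 0.52 (adjusted p = 0.033). Each of these 2 calls was kept in 1 of 6 fits with a mouse left out, that without NZW mouse 3.

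In the table of BALB/C, DBA1 and 129/svj fewer members were called. Between BALB/C and DBA1 4 of 45 probes were called, against 5.75% of all 15818 tested probes. Between BALB/C and 129/svj 3 were called, against 4.83%. Between the sensitive strains DBA1 and 129/svj 2 were called, against 4.49%. The median difference over the members was 0.1238, 0.0202 and -0.0174 in this order, beside 0.0139, 0.0132 and 0.0033 over all tested probes. Some of the called rows, among them those of Slc4a11 and Slc4a8, were detected in a single strain. They entered the test only through the strain where they were high. The first 2 comparisons share the BALB/C mice. With any 1 BALB/C mouse left out the count was 1 in each of them. Members detected in BALB/C only, such as Slc4a11, then have too few mice for the filter. The Slc4a8 row stayed in the test in these fits, and its call against DBA1 fell short.

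Atp6v1d differed by more than 2 units. It encodes a subunit of the central stalk of the proton pump, which every cell carries in its lysosomes. It read 8.21, 8.28 and 8.23 in BALB/C, 10.48, 10.37 and 10.14 in DBA1 and 10.42, 10.53 and 10.21 in 129/svj. The BALB/C mice lay almost 2 units below all others, and DBA1 and 129/svj overlapped (difference -0.06, adjusted p = 0.92). The difference was -2.09 from DBA1 (adjusted p = 1.5e-05) and -2.15 from 129/svj (adjusted p = 1.1e-05), a 4.25-fold and a 4.43-fold lower signal. The B6 and NZW mice did not differ at the matched probe (11.11, 10.93 and 11.04 against 11.22, 11.05 and 10.95, difference -0.05, adjusted p = 0.82). Of the 7 tested proton pump rows shared by all cells no other was called. Atp6v1a, a catalytic subunit, differed by 0.05 and 0.29 (adjusted p = 0.91 and 0.47). In these comparisons Atp6v1d passed in every alternative and with any mouse left out.

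The other calls in this table were smaller. Slc4a11, a carrier of protons and water, read 5.74, 5.91 and 6.25 in BALB/C and was below detection in every DBA1 and 129/svj mouse. It was at least 1.22-fold higher than in DBA1 (adjusted p = 0.021) and at least 1.24-fold higher than in 129/svj (adjusted p = 0.012), where such a bound sets the dim strain at the lowest signal detected on its arrays. One of 2 tested Slc4a8 rows read 5.93, 6.12 and 5.94 in DBA1 and was below detection in every BALB/C and 129/svj mouse. It was at least 1.24-fold and 1.26-fold higher in DBA1 (adjusted p = 0.031 for each). These bounds are small, and the differences were lost without background correction for Slc4a8 (adjusted p = 0.11 and 0.12) and, against DBA1, for Slc4a11 (adjusted p = 0.058). Both rows passed the filter of 3 mice only through the strain where they were high, so their adjusted p is no support on its own. The other tested Slc4a8 row had the opposite sign without passing. There BALB/C minus DBA1 was 0.48 (adjusted p = 0.37) and DBA1 minus 129/svj was -0.60 (adjusted p = 0.32). A higher level of Slc4a8 as a whole in DBA1 was thus not shown. Kcnj15 was lower in DBA1 than in 129/svj at 1 of 2 rows, where it read 8.25, 8.55 and 8.85 in DBA1, 9.82, 9.88 and 9.28 in 129/svj and 9.59, 9.26 and 9.16 in BALB/C. DBA1 lay below both other strains at this row, and the difference from 129/svj was -1.11 (adjusted p = 0.015). The other Kcnj15 row differed by -0.10 (adjusted p = 0.88).

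**Figure D4:**
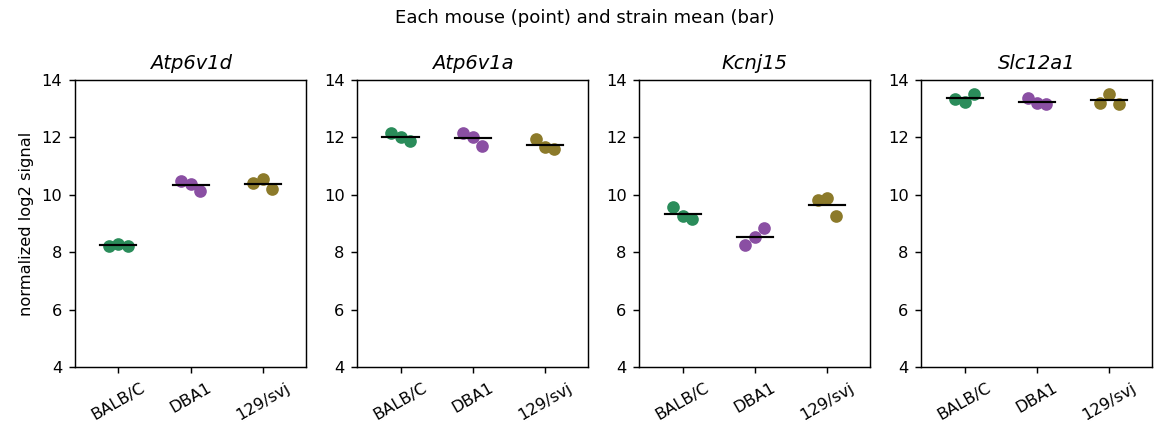
Normalized log2 signal (vertical axis) of each BALB/C, DBA1 and 129/svj mouse, with bars for strain means. Atp6v1d is dimmer in BALB/C by 2.09 and 2.15 and Kcnj15 is lowest in DBA1, whereas Atp6v1a and Slc12a1 overlap across the strains.

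Proximal carriers did not pass between BALB/C and a sensitive strain. Of 8 tested rows, limma called 0 between BALB/C and either sensitive strain, with 5 past an unadjusted p of 0.05 for DBA1 and 3 for 129/svj, and the methods' t-test called 0 after adjustment. The median difference was 0.1402 from DBA1 and -0.1635 from 129/svj. The 8 rows include that named for Slc9a3, whose key also belongs to another symbol. Slc26a1, Slc26a6, Aqp7, Aqp11 and Aqp1 have no tested row in this table. Slc34a1 read 13.77, 14.09 and 14.06 in BALB/C, 13.99, 13.50 and 13.64 in DBA1 and 13.68, 13.65 and 13.29 in 129/svj (differences of 0.26 and 0.43, adjusted p = 0.5 and 0.28). Slc4a4 read 8.70, 8.13 and 7.77 in BALB/C, 9.10, 8.92 and 10.52 in DBA1 and 8.78, 8.82 and 10.45 in 129/svj. Every BALB/C mouse was lower, but DBA1 mouse 3 and 129/svj mouse 3 stood well above the mice of their own strains, and the differences of -1.31 and -1.15 did not pass (adjusted p = 0.21 and 0.33). Without these 2 mice the differences were -0.81 and -0.60 (adjusted p = 0.093 and 0.25).

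In the thick ascending limb Slc12a1 read 13.32, 13.24 and 13.51 in BALB/C, 13.35, 13.19 and 13.14 in DBA1 and 13.20, 13.51 and 13.15 in 129/svj, and it differed by 0.12 and 0.07 (adjusted p = 0.73 and 0.9). The strains overlapped at this row. In the collecting duct Aqp2 read 10.55, 10.48 and 11.35 in BALB/C, 9.66, 9.51 and 9.88 in DBA1 and from 9.73 to 10.71 in 129/svj. BALB/C lay above DBA1 without overlap, by 1.11 (adjusted p = 0.056), and overlapped 129/svj. Without background correction, and in several other alternatives, this difference passed (adjusted p = 0.044). Scnn1g differed by 0.41 and 0.48 (adjusted p = 0.2 and 0.15). Slc12a3 differed by -0.13 and 0.63 (adjusted p = 0.87 and 0.34) at its brighter row and by -0.03 and 0.14 (adjusted p = 0.97 and 0.9) at the other. The distal convoluted markers Pvalb and Calb1 were both higher in BALB/C than in DBA1, by 3.25 (adjusted p = 0.031) and by 1.26 (adjusted p = 0.045), and Pvalb read 7.47 in DBA1 mouse 3. Without DBA1 mouse 3 and 129/svj mouse 3 these differences were 2.69 (adjusted p = 0.0033) and 1.34 (adjusted p = 0.026). Their summed signal was 4891 to 5638 in BALB/C, 846.8 to 1626 in DBA1 and 1172 to 5672 in 129/svj.

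Between resistant and sensitive strains, taken as the mean of the 2 within-table differences, 4 of 32 matched members were called, 2 in each direction, against 12% of all 6896 matched probes tested. Slc8a1, named for its call, is the sodium-calcium exchanger of the connecting tubule. It was higher in resistant strains by 0.52 ± 0.13 at 1 of 2 tested probes (adjusted p = 0.016), and the other differed by 0.08 (adjusted p = 0.71). Slc4a9 was higher by 0.41 ± 0.112 (adjusted p = 0.025). These 2 genes had the same sign in both tables. Slc8a1 was at 0.82 within the BALB/C table (adjusted p = 0.0053) and at 0.22 between B6 and NZW (adjusted p = 0.64). Slc4a9 was at 0.34 and 0.49, and in this fit over matched probes neither passed alone (adjusted p = 0.18 and 0.091). Its call was kept in 10 of 15 fits with a mouse left out. Slc4a4 was lower in resistant strains by -0.99 ± 0.294 (adjusted p = 0.039), at -1.26 and -0.72 in this order. This call was kept in 7 of 15 fits with a mouse left out, being lost without any B6 or NZW mouse or without BALB/C mouse 2 or 3, and without DBA1 mouse 3 and 129/svj mouse 3 it passed at -0.72. Atp6v1d was lower by -1.11 ± 0.0849 (adjusted p = 3.5e-07), at -2.18 and -0.05, so it differed within the BALB/C table only. The median difference over the 32 members was 0.1128. With strain as a random block, for which all probes share a single correlation within strains, 1 of the 4 passed, that of Atp6v1d. This shared value is not the spread between strains at Atp6v1d itself, so the pass does not show a difference beyond that spread. Without DBA1 mouse 3 and 129/svj mouse 3 the count was 7.

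**Figure D5:**
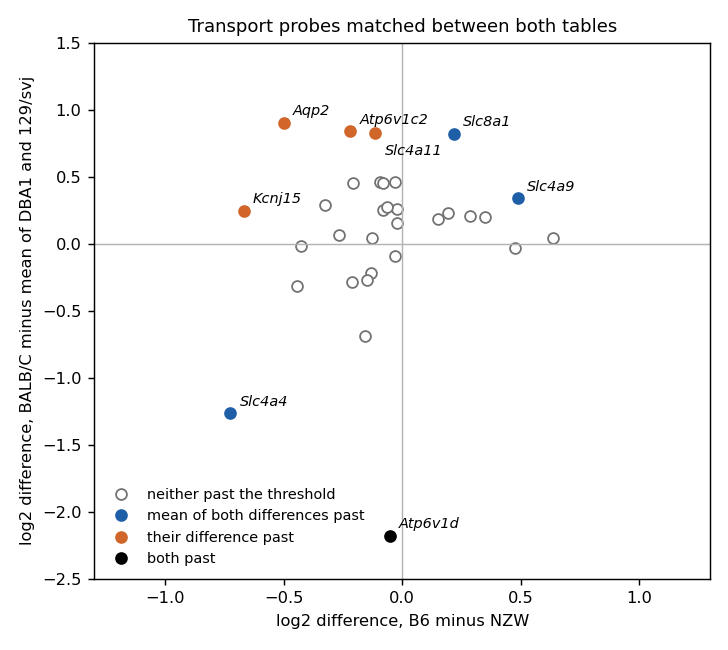
Log2 difference between B6 and NZW (horizontal axis) and of BALB/C against DBA1 and 129/svj averaged (vertical axis) for the 32 tested transport probes matched between the tables. Colours mark probes whose mean of both differences, or whose difference between them, passed an adjusted p of 0.05. Atp6v1d lies at -2.18 on the vertical and -0.05 on the horizontal axis.

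The within-table differences were not alike at every member. A test of the difference between them was past the threshold for 5 of 32 members, against 10.3% of all matched probes. They were Atp6v1d, Slc4a11, Atp6v1c2, Aqp2 and Kcnj15. Slc4a11 was detected in no DBA1, 129/svj or B6 mouse at this probe and in 1 NZW mouse, so its values there are only bounds. Aqp2 in BALB/C was 0.90 above the average of DBA1 and 129/svj and 0.50 lower in B6 than in NZW, and Kcnj15 was 0.25 higher and 0.67 lower. Atp6v1c2, a stalk subunit of the proton pump in intercalated cells, was 0.84 higher in BALB/C and differed by -0.22 between B6 and NZW. At this probe Atp6v1c2 was detected in only 1 DBA1 mouse and 1 129/svj mouse, so the 0.84 rests on signal near background in these strains. The table and the strains it holds cannot be told apart in this test.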

How the data were processed

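The authors deposited BeadStudio signal intensity values without normalization and detection p-values in 2 tables. Mouse 1 of BALB/C, DBA1 and 129/svj had a second array, which was averaged with the first. In each table the background was removed by normexp, with parameters inferred from the detection p-values and 16 added as an offset, and arrays were then taken to log2 and quantile normalized. limma 3.58.1 in R 4.3.3 was fitted per table with 1 coefficient per strain, on probes that 3 mice or more detected (threshold 0.05), with Benjamini-Hochberg adjustment. Probes with a search key unique in both tables (19886 pairs) were normalized together for resistant against sensitive strains. Tables were joined with Python 3.11.15 and pandas 2.3.3, and the procedure was tested on simulated data. Of 126 symbols 123 are current in RefSeq and 3 are older. In 4 member rows of the BALB/C table the key also belongs to another symbol, and their values are not given. Those of them that were tested remain in the counts, medians and sums of their lists. Results of some further members are not reported here. Named genes were the defining carriers of each segment, up to 12 further members called at a log2 difference of at least 1, and the 2 largest further calls of each list. The members and lists were chosen with earlier results of these data known. Same-numbered DBA1 and 129/svj mice deviated together (correlations of 0.105 to 0.388), but so did DBA1 mouse 1 and 129/svj mouse 2 (0.341). The data thus do not show a pairing by number, and the labels give none. Mice are labelled as separate samples, and litters are not given. P-values measure the spread between these mice, and the number of arrays limits the precision. Build and probe sequences are not given in the sources used here. Alternatives covered the background, scaling, filter, fit, block, t-test and each mouse.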

Additional observations from a re-analysis of the deposited data

Results flagged for a closer look

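At 5 members the difference of BALB/C from DBA1 and 129/svj averaged was unlike the difference between B6 and NZW, by limma's test of one minus the other over the matched probes. These were Atp6v1d at -2.13 (adjusted p = 7e-07), Slc4a11 at 0.94 (adjusted p = 0.014), Atp6v1c2 at 1.06 (adjusted p = 0.024), Aqp2 at 1.41 (adjusted p = 0.033) and Kcnj15 at 0.91 (adjusted p = 0.036). Atp6v1d passed in every alternative and with any mouse left out. For Slc4a11 the matched probe was detected in the BALB/C mice and 1 NZW mouse only, so the value is not the size of a difference. That of Atp6v1c2 was detected in only 1 DBA1 mouse and 1 129/svj mouse. The 4 members other than Atp6v1d did not pass throughout, and without B6 mouse 2 each of these fell short, with adjusted p of 0.053 to 0.097. Groups of 3 mice are too small for a test of single outlying values.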

How the results depend on the processing

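None of the 41 called differences of named genes changed sign in 437 refits under other settings or in 327 refits with a mouse left out, but 62 and 104 of these fell short of the threshold. The calls given here that passed in all refits that tested them were Slc26a1, Aqp8, Slc12a3 (ILMN_1214122) and Atp6v0e2 (ILMN_2729028) between B6 and NZW, Atp6v1d in BALB/C against DBA1 and 129/svj, and the difference between the tables for Atp6v1d. Counts of called members moved more. For B6 minus NZW (21 called) there were 33 with 75th percentile scaling, 1 with both tables fitted together over matched probes, where only 32 members could be tested, 10 with the methods' t-test adjusted by Benjamini-Hochberg and 34 at an unadjusted P below 0.05, and 9 to 20 with a mouse left out (11, 9 and 13 without B6 mouse 1, 2 and 3). For BALB/C minus DBA1 (4) there were 1 with detection in every mouse, 7 in the joint fit, 2 and 15 with the t-test adjusted and unadjusted, 7 without DBA1 mouse 3 and 129/svj mouse 3 (chosen after seeing the data), and 1 to 7 with a mouse left out. There were 1 without any of the BALB/C mice, 2 without DBA1 mouse 1 or 2 and 7 without 129/svj mouse 3. For BALB/C minus 129/svj (3) there were 1 with detection in every mouse, 8 with the unadjusted t-test, and 1 to 5 with a mouse left out, 1 without any of the BALB/C mice and 5 without 129/svj mouse 2. For DBA1 minus 129/svj (2) there was 1 without background correction, with offset 50, with detection in every mouse, in the joint fit and with a variance trend, 0 with the adjusted t-test (2 unadjusted), and 0 to 2 with a mouse left out. For resistant minus sensitive (4) there were 0 with the adjusted t-test (6 unadjusted), 1 with strain as a random block, 7 without both mice 3, and 2 to 6 with a mouse left out, 2 without B6 mouse 2 or 3. With the replicate number as a block the counts were 20, 5, 3, 2 and 4 in the order above. Between DBA1 and 129/svj the block changed no call of a named gene (adjusted p = 0.038 for Kcnj15 and 0.049 for Slc4a8). Between B6 and NZW the numbers do not pair the mice, since their deviations correlated from -0.0732 to 0.011, and between BALB/C and the other strains the correlations ran from -0.26 to 0.133. The cause of these changes was not tested. Low signal limits the reach: 108 of 220 and 57 of 102 member probes were detected in too few mice to be tested.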

Other observations

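Within the sensitive strains single mice stood apart at several transport genes. Slc13a3 read 7.57 and 7.64 in DBA1 mice 1 and 2 and 5.48 in mouse 3, and 7.72 and 7.92 in 129/svj mice 1 and 2 and 6.09 in mouse 3. At Slc4a4 the same mice 3 were the highest of their strains, at 10.52 and 10.45. Slc12a3 was lowest in these mice too, at 12.61 in DBA1 mouse 3 and 11.45 in 129/svj mouse 3 at the brighter row. In 129/svj mouse 3 the macrophage gene Cd68 read 9.36, above all 8 other mice of the table, which ranged from 5.85 to 7.78.

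In NZW mouse 2 the sulfate carrier Slc13a1 read 9.01, against 10.08 and 10.19 in mice 1 and 3, and both bright Slc12a1 probes were the lowest of all 6 mice, at 12.50 and 11.76. The urea transporter Slc14a2 read 7.21 in this mouse and 8.72 to 9.64 in the 5 others.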
